A study of Mus musculus with 18 samples.

Results

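Transcripts of 36 genes of glycolysis and of the hypoxia response were examined by RNA-seq in OT-I CD8+ T cells, mouse T cells whose receptor recognizes a peptide of ovalbumin. The genes were taken by symbol from a list and comprised 19 glycolytic enzymes, 3 regulators of glycolytic flux, 13 targets of hypoxia-inducible factor (HIF) outside glycolysis, and *Hif1a* itself. They were 36 of the 45706 genes listed for each library, and all 36 were among the 12255 genes with enough counts to be tested. CD8+ T cells purified from OT-I spleens were cultured with IL-15 and IL-7 and either met 10 ng/ml of the peptide daily for 5 days (repeat peptide stimulated) or met it for 48 hours and were then kept without it (single peptide stimulated). From day 5 both kinds of culture received 1 µM ibrutinib or its solvent DMSO. Ibrutinib is a covalent inhibitor of the kinase BTK and of related Tec family kinases. Repeat peptide cultures kept the peptide in their medium throughout this treatment. Cells were harvested on day 8 after 3 days of treatment. This gave 4 libraries of repeat peptide cells with DMSO, 5 of repeat peptide cells with ibrutinib, 5 of single peptide cells with DMSO and 4 of single peptide cells with ibrutinib. The genotype entries of the labels hold 6 different names, which the labels do not call experiments. They were taken here to mark experiments and are lettered A to F. Experiments A to D gave a library of each of the 4 groups, E only a repeat peptide library with ibrutinib and F only a single peptide library with DMSO. The strain entry gives wild type OT-1 mice for all 18 libraries, whereas the genotype entry names a btk KO for experiments B to E, INHB-1 left over for A and PKC igoni-2 for F. No *Btk* deficient cells are described for this experiment in the study. The entry therefore served only to name experiments, and which genotype each culture carried could not be settled. The labels do not say whether the libraries of a group came from separate animals, so p-values measure the spread between these libraries.

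Glycolysis splits glucose into pyruvate through a chain of enzymes, and lactate dehydrogenase then turns pyruvate into lactate. Activated T cells run this chain fast even when oxygen is plentiful. The factor HIF-1, made of the oxygen-regulated subunit HIF-1α and its partner ARNT, raises transcription of many glycolytic enzymes and of genes for angiogenesis, mitophagy and oxygen sensing, and in T cells it also accumulates after receptor signalling. Several steps of the chain can be carried out by any of a set of isoenzymes encoded by separate genes.

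Total expected counts ranged from 23445922 to 51995372 per library. The summed level of 6 CD8+ T cell markers was 2734 to 4063 TPM, where TPM is the length-corrected transcript level of the deposited tables. B cell markers summed to at most 7.1 TPM, myeloid markers to at most 9.18, dendritic cell markers to at most 0.15 and erythroid markers to at most 1.84. The 3 CD4+ T cell markers summed to 16.4 to 21.4 TPM in repeat peptide cells with DMSO, 5.21 to 16.3 with ibrutinib and at most 5.6 in single peptide cells, mostly from *Zbtb7b*, with *Cd4* itself at no more than 0.17 TPM. The 3 NK cell markers summed to 2.64 to 11.5 TPM in repeat peptide cells with DMSO, 2.69 to 25.7 with ibrutinib and at most 3.67 in single peptide cells, with *Ncr1* at no more than 1.16 TPM. The part of such cells in the differences reported here was not tested, and in bulk libraries fewer cells of a type and less RNA per cell cannot be told apart. Libraries of one experiment deviated together from their group means (correlations of 0.16 to 0.494 in 24 pairs), so values are also given within experiments and with the experiment as a block in the fit.

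Summed over the 19 genes, the glycolytic enzymes were highest in the DMSO cultures of repeat peptide stimulated cells and lower there with ibrutinib. The sums were 9484, 8859, 13702 and 13321 TPM with DMSO in experiments A to D, which is 1.13% ± 0.252 (SD, n = 4) of all transcripts. With ibrutinib they were 5034 TPM in E and 7387, 6326, 8773 and 8143 in A to D. In summed TPM every ibrutinib library lay below every DMSO library, narrowly so for 8773 against 8859. The ratio of the ibrutinib to the DMSO sum was 0.779, 0.714, 0.64 and 0.611 in experiments A to D. The mean of log2(TPM + 1), in which each gene counts equally, overlapped (6.729 with ibrutinib in C, 6.593 with DMSO in B). Among single enzymes in TPM, *Gapdh* (at most 2893 with ibrutinib, at least 3119 with DMSO) and *Eno3* did not overlap. Others did, such as *Tpi1* (up to 396 and from 377) and *Ldha* (up to 1192 and from 1142). In normalized counts enzymes such as *Gapdh* overlapped (73756 with ibrutinib in C, 69486 with DMSO in A), whereas *Eno3* and *Pfkp* did not. Library E had the lowest sum of its group in TPM. Its normalized counts ran from the lowest of the group (*Hk1*, 4862) to the highest (*Gpi1*, 19838). In single peptide cells the sums were 4286 to 5513 TPM with DMSO and 3470 to 4397 with ibrutinib, with ratios of 0.909, 0.846, 0.729 and 0.81.

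The 13 HIF targets outside glycolysis summed to 392, 254, 452 and 479.8 TPM in repeat peptide cells with DMSO. With ibrutinib they summed to 264 TPM in E and 341, 320.5, 333 and 325 in A to D. These groups overlapped, because the DMSO library of experiment B was lower than every ibrutinib library, and the ratio of ibrutinib to DMSO was 0.87, 1.26, 0.737 and 0.677. In single peptide cells the sum was 218 to 320.3 TPM with DMSO and 246 to 315 with ibrutinib, higher with ibrutinib in 2 experiments and lower in 2. The sums are a description and were not tested.

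**Figure D1:**
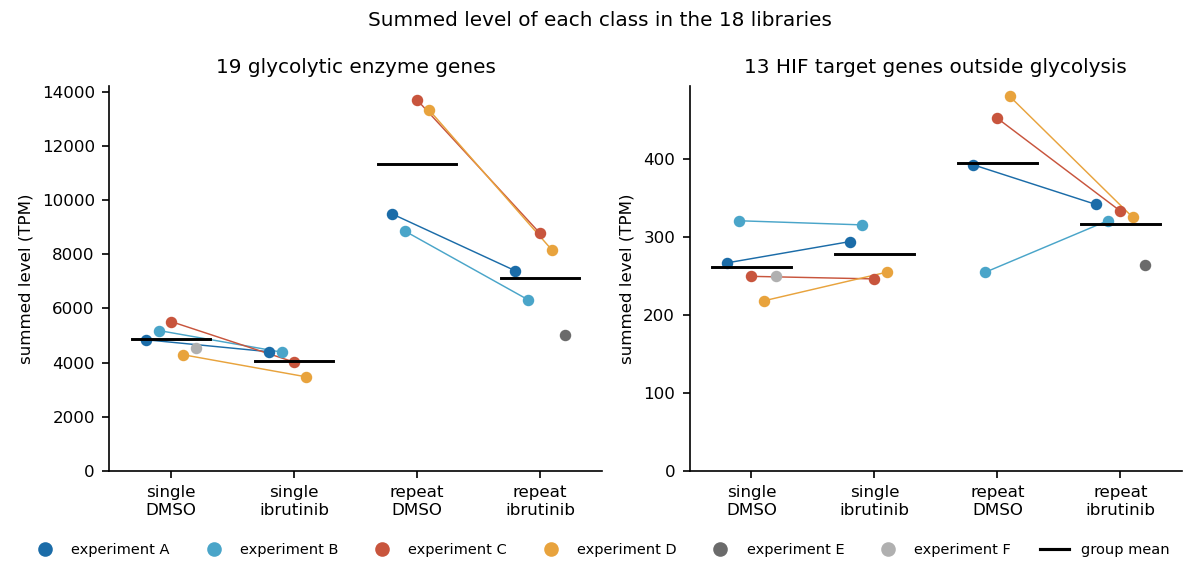
Summed level in TPM (vertical axis) of the 19 glycolytic enzyme genes (left) and of the 13 HIF target genes outside glycolysis (right) in each of the 18 libraries by group (horizontal axis), with points coloured by experiment, lines joining the DMSO and ibrutinib libraries of an experiment and bars at the group means. In the enzyme sums the 5 repeat peptide ibrutinib libraries (5034 to 8773 TPM) lie below the 4 DMSO libraries (8859 to 13702). In the HIF target sums these groups overlap. In the mean of log2(TPM + 1), which is not drawn, the enzyme groups overlap too.

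Core letters of the HIF binding element, ACGTG and GCGTG, were looked for on both strands of RefSeq promoter windows (GRCm38.p6, from 250 bases before to 50 after a transcript start). ACGTG stood in 19.6% of all 32851 windows, GCGTG in 32.4% and either of them in 43.8%, and a CACGTG counts on both strands. Of the 36 genes 34 had a window, *Ero1l* under the name *Ero1a*, and *Bnip3l* and *Ndrg1* were not matched. In the window nearest the annotated start of the gene, either motif stood in 13 of 19 enzymes, 3 of 3 flux regulators, 10 of 11 HIF targets and in *Hif1a*. A match describes letters and is not a bound site. The 160 bases before the start are shown 5′ to 3′ for 4 enzymes, *Pdk1* and *Bnip3*, which recur in the comparisons, with both motifs in capitals on either strand. For *Gapdh* and *Ldha* the transcript start of the window lies inside the annotated gene. Their stretches therefore lie within the gene, though not in annotated exons. The stretches are chr6:125165774-125165933 on the minus strand for *Gapdh*, chrX:106186940-106187099 on the plus strand for *Pgk1*, chr11:70657016-70657175 on the plus strand for *Eno3*, chr7:46845644-46845803 on the plus strand for *Ldha*, chr2:71873064-71873223 on the plus strand for *Pdk1* and chr7:138909507-138909666 on the minus strand for *Bnip3*, where 13 bases lie in an annotated exon.
Gapdh: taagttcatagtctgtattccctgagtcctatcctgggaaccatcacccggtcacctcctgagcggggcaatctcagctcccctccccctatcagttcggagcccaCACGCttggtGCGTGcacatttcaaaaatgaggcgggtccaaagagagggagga
Pgk1: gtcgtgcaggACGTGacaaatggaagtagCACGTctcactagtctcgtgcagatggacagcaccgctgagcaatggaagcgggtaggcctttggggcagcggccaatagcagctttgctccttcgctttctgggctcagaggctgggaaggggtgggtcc
Eno3: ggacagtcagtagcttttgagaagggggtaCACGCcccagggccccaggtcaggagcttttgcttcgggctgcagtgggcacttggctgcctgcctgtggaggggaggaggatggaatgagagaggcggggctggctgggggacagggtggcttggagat
Ldha: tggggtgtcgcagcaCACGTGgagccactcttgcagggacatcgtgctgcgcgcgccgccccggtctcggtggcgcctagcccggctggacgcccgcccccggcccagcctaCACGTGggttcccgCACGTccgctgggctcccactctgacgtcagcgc
Pdk1: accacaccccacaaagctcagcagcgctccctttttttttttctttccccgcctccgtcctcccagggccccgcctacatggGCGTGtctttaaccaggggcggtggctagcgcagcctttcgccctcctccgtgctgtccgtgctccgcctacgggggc
Bnip3: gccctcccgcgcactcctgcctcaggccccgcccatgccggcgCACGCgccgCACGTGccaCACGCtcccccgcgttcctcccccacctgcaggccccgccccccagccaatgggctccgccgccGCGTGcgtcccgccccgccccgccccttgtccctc
*Ldha*, *Pgk1* and *Bnip3* hold ACGTG in these stretches, while *Gapdh*, *Eno3* and *Pdk1* hold only GCGTG there. *Kdm3a* had a single GCGTG 27 bases before its start. *Hk1*, *Gpi1*, *Aldoa*, *Tpi1*, *Eno2*, *Pkm* and *Vegfa* had neither motif in their windows.

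Repeat was first compared with single peptide stimulation in the DMSO cultures, which asks how these genes stand in exhausted cells without the inhibitor. A gene was called where its edgeR adjusted p was under 0.05, its normalized counts averaged 50 or more and its log2 fold change exceeded 0.2 in size. Normalized counts are expected counts scaled to a common library size. Of the 19 enzymes 14 rose and 0 fell, and of the 13 HIF targets 8 rose and 1 fell. Among all tested genes 47.0% were called, 22.8% higher and 24.2% lower. The median log2 fold change was 1.05 for the enzymes and 0.54 for the HIF targets, beside 0 over all tested genes.

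*Gapdh* (glyceraldehyde-3-phosphate dehydrogenase, chr6:125161715-125166467 on GRCm38), the most abundant of the 36 genes, stood at 3759 ± 668 TPM (SD, n = 4) in repeat and 1445 ± 198 TPM (n = 5) in single peptide cells and rose by 1.19 ± 0.163 (adjusted p = 9.02e-06) on the log2 scale, the error being the SE. *Pgk1* (phosphoglycerate kinase, chrX:106187100-106203699) rose by 1.51 ± 0.218 (adjusted p = 1.61e-05), from 288 ± 23.6 to 932 ± 262 TPM. *Tpi1* (triosephosphate isomerase, chr6:124810586-124814296) rose by 1.95 ± 0.267 (adjusted p = 9.08e-06). *Pgam1* (phosphoglycerate mutase) rose by 1.05 ± 0.186 (adjusted p = 0.000124) and *Pkm* (pyruvate kinase) rose by 0.80 ± 0.176 (adjusted p = 0.000921). In these 5 genes the lowest repeat peptide library lay above the highest single peptide library. Counts of *Gapdh*, *Pgk1*, *Pgam1* and *Eno1* were fractional in all 18 libraries and those of *Pkm* in 10, so part of their reads was divided among similar sequences and their values are less certain.

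Of the 19 enzymes 5 were not called. *Gpi1* (glucose-6-phosphate isomerase) had 16328 to 20275 normalized counts in repeat and 18695 to 22596 in single peptide cells, a log2 fold change of -0.18 ± 0.0938 (adjusted p = 0.107). *Hk1*, the constitutive hexokinase, had 6108 to 7770 and 6405 to 7772, a log2 fold change of 0.00469 ± 0.11 (adjusted p = 0.974). *Pfkp*, the platelet type phosphofructokinase, stood at 0.23 ± 0.131 (adjusted p = 0.139). *Hk3* at -1.15 ± 0.364 (adjusted p = 0.0126) and *Eno2* at 3.00 ± 0.767 (adjusted p = 0.00298) were not called because their mean normalized counts of 39.2 and 26.5 are under the minimum.

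Isoenzymes of a family had different fold changes. Hexokinase 2, the inducible form, made up 13.8 to 22.8% of hexokinase TPM in repeat and 6.04 to 12.6% in single peptide cells with DMSO, and *Hk2* rose by 1.05 ± 0.304 (adjusted p = 0.00708). It was not higher in experiment B. The muscle enolase *Eno3* (chr11:70657202-70662513) held 8.84% ± 2.62 (SD, n = 4) of enolase TPM in repeat and 4.77% ± 1.57 (n = 5) in single peptide cells. *Eno3* rose by 2.02 ± 0.161 (adjusted p = 1.56e-08) and the ubiquitous *Eno1* rose by 0.88 ± 0.2 (adjusted p = 0.00117).

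*Ldhb* (lactate dehydrogenase B) rose by 2.93 ± 0.368 (adjusted p = 3.64e-06) but made up 1.03% ± 0.0546 (SD, n = 4) of lactate dehydrogenase TPM, since *Ldha* stood at 1560 ± 421 TPM, having risen from 578 ± 71. *Ldha* rose by 1.24 ± 0.231 (adjusted p = 0.000195). *Aldoc* rose by 1.37 ± 0.447 (adjusted p = 0.0149) and held 2.7% ± 0.678 of aldolase TPM, the rest being *Aldoa*, which rose by 0.90 ± 0.158 (adjusted p = 0.000122). Among the phosphofructokinases *Pfkl*, the liver type, rose by 0.66 ± 0.204 (adjusted p = 0.011) and *Pfkm*, the muscle type, rose by 0.36 ± 0.139 (adjusted p = 0.0344). *Pfkp* was the main form at 67.3% ± 4. The call of *Pfkl* was lost without repeat DMSO D (adjusted p = 0.0828), and that of *Pfkm* without any one of repeat DMSO C or D and single DMSO A, B or C (0.0558 to 0.109).

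**Figure D2:**
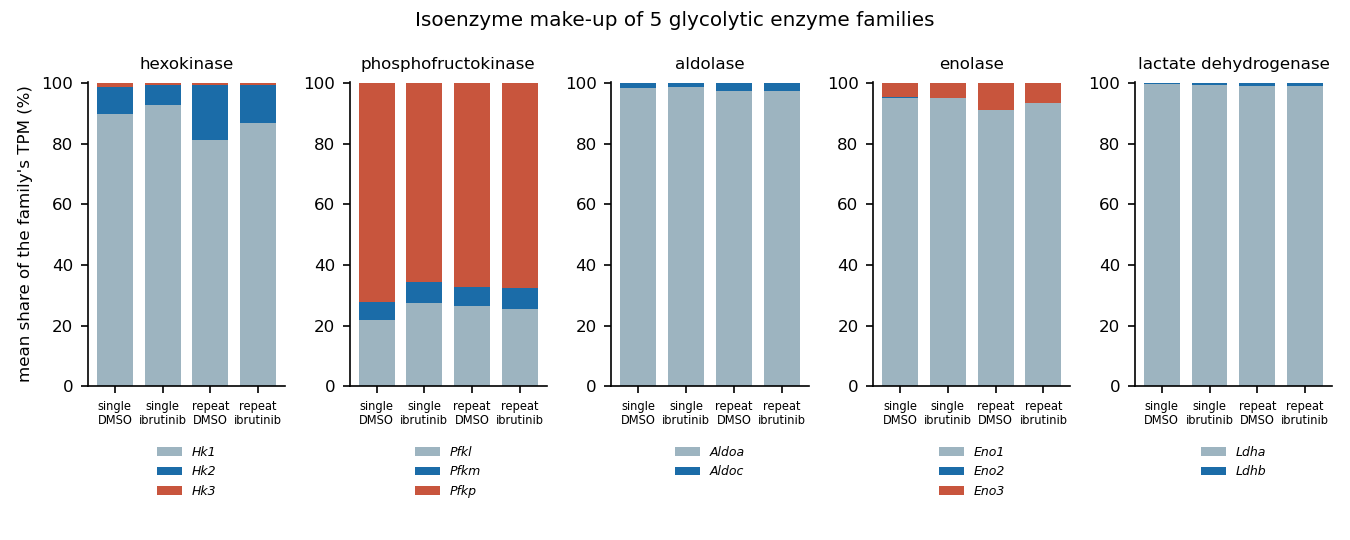
Mean share in percent (vertical axis) of each isoenzyme gene in the summed TPM of its family, for 5 families of glycolytic enzymes and by group (horizontal axis). *Hk2* (18.3%) and *Eno3* (8.84%) have their largest shares in repeat peptide cells with DMSO, and *Aldoa* and *Ldha* hold at least 97.3% of their families in each group.

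Among the HIF targets outside glycolysis, *Ak4* (a mitochondrial adenylate kinase) had the largest fitted rise of the 36 genes. Its normalized counts were 228, 109, 559 and 624 in repeat peptide cells with DMSO and 6.84, 54.1, 16.6, 6.48 and 20.4 in single peptide cells with DMSO. The groups did not overlap, and *Ak4* rose by 4.18 ± 0.665 (adjusted p = 4.33e-05). *Bnip3*, a receptor for mitophagy, had 1812, 917, 2674 and 2839 against 237 to 558, also without overlap, and rose by 2.34 ± 0.319 (adjusted p = 8.77e-06).

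*Vegfa*, the angiogenic growth factor, rose by 2.30 ± 0.681 (adjusted p = 0.00832), but its groups overlapped, since in experiment B the single peptide library had 240.1 normalized counts and the repeat peptide library 89.8. The prolyl hydroxylases that mark HIF-1α for degradation also moved, as *Egln3* rose by 1.05 ± 0.291 (adjusted p = 0.00531) and *Egln1* rose by 0.45 ± 0.0919 (adjusted p = 0.000466). *Ero1l*, an oxidase of the endoplasmic reticulum, rose by 0.57 ± 0.131 (adjusted p = 0.00124). *Higd1a*, a mitochondrial protein, rose by 0.61 ± 0.249 (adjusted p = 0.0477), a call lost in 11 of 18 fits that left out a library (0.0507 to 0.204), namely those without any one of repeat DMSO A, C or D, repeat ibrutinib C or D, single DMSO A, B, C or F and single ibrutinib A or C. *Ndrg1*, a stress response gene, rose by 0.54 ± 0.201 (adjusted p = 0.0295), a call lost without any one of repeat DMSO C or D and single DMSO A or F (0.0625 to 0.139). *Ankrd37* (an ankyrin repeat gene), *P4ha1* (a collagen prolyl hydroxylase), *Hilpda* (a lipid droplet protein) and *Bnip3l* (a mitophagy receptor) had log2 fold changes from 0.0802 to 0.32 and were not called, although *Ankrd37* was called without single DMSO B (adjusted p = 0.0267).

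Both genes that fell are known to be induced by HIF. *Kdm3a* (a histone H3 lysine 9 demethylase, chr6:71588972-71632990) had 3125, 3127, 3118 and 2959 normalized counts in repeat peptide cells with DMSO against 4958 to 7252 in single peptide cells and fell by 0.96 on the log2 scale (SE 0.117, adjusted p = 2.45e-06). *Pdk1* (pyruvate dehydrogenase kinase, which keeps pyruvate from entering the mitochondrial cycle, chr2:71873224-71903858) had 2397 to 4101 against 7262 to 8350 and fell by 1.22 on the log2 scale (SE 0.123, adjusted p = 2.57e-07). Neither gene overlapped between the groups. Of the enzymes that set the level of fructose 2,6-bisphosphate, *Pfkfb4* rose by 0.81 ± 0.277 (adjusted p = 0.0197), a call lost without repeat DMSO C (0.0655), and *Pfkfb3* had 0.20 ± 0.136 (adjusted p = 0.226). *Hif1a* (chr12:73901375-73947530) had 10323 to 16418 against 4104 to 5519 normalized counts and rose by 1.56 ± 0.158 (adjusted p = 2.87e-07).

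**Figure D3:**
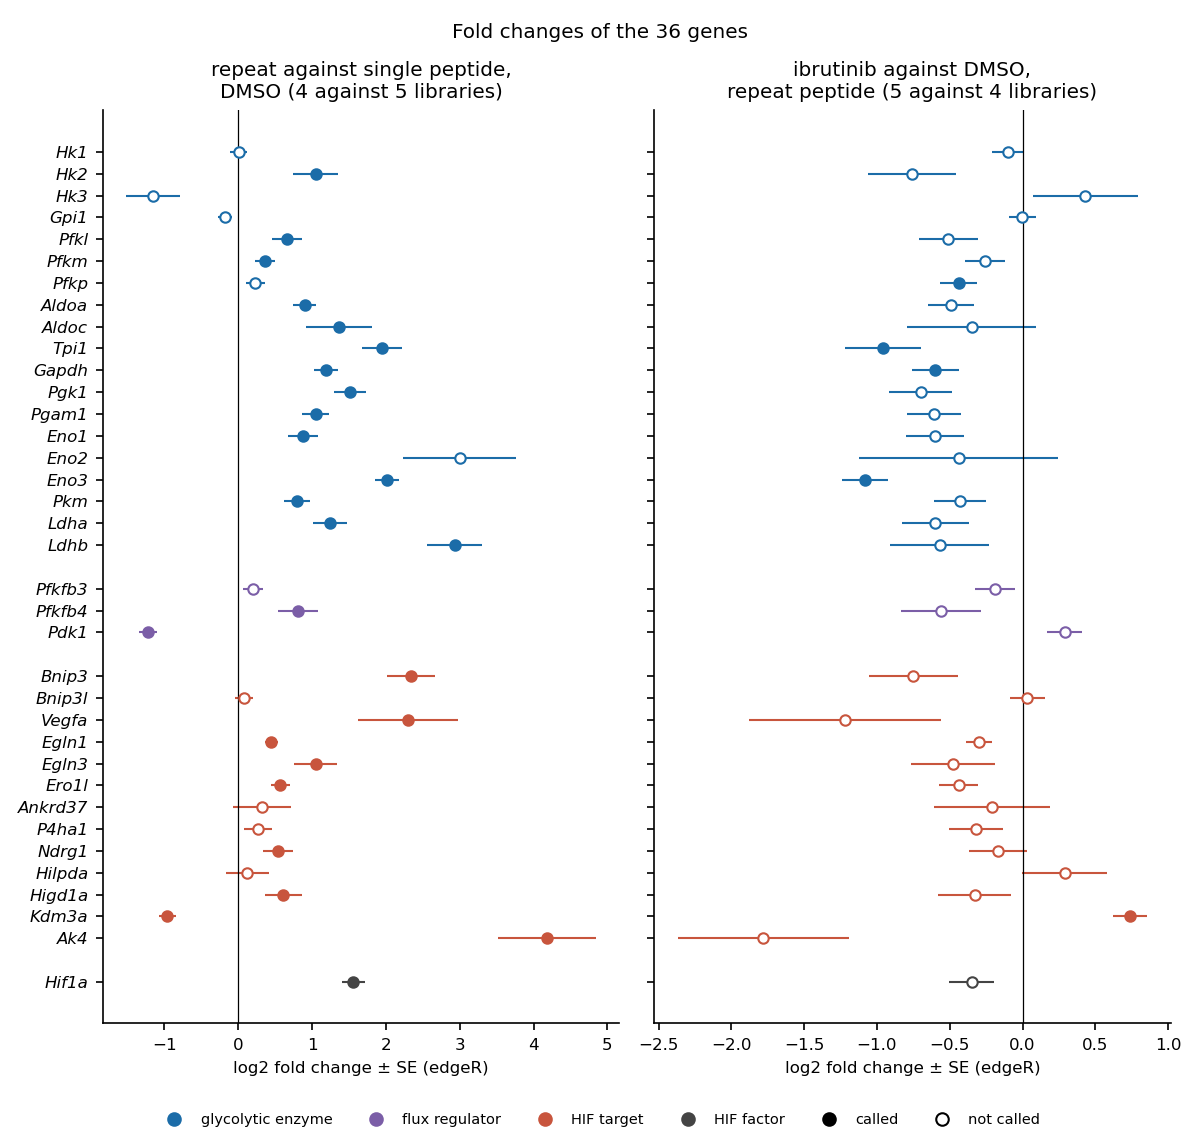
Log2 fold change with its standard error (horizontal axis) of each of the 36 genes (vertical axis) for repeat against single peptide with DMSO and for ibrutinib against DMSO in repeat peptide cells, coloured by class, with filled points for called genes. In the first comparison 24 genes are called higher and *Kdm3a* and *Pdk1* lower, and in the second 4 enzymes are called lower and *Kdm3a* higher, with 31 of the 36 points below 0.

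Ibrutinib was then compared with DMSO in repeat peptide stimulated cells, which asks what the inhibitor changed in exhausted cells. This comparison shares the repeat peptide DMSO libraries with the one above. Of the 19 enzymes 4 fell (*Eno3*, *Tpi1*, *Gapdh* and *Pfkp*) and 0 rose, and of the 13 HIF targets 0 fell and 1 rose (*Kdm3a*). Among all tested genes 5.92% were called, 1.92% lower and 4.01% higher. The median log2 fold change was -0.51 for the enzymes and -0.32 for the HIF targets, beside 0 over all tested genes, and 18 of 19 enzymes and 10 of 13 HIF targets were below 0. With the experiment as a block 9 enzymes and 3 HIF targets were called lower and *Kdm3a* higher, where 5.35% of all tested genes were called lower. Experiment E gave only a repeat peptide library with ibrutinib, so with the block that library does not inform this comparison. The number of enzymes called was 1 without any of repeat DMSO C or D or repeat ibrutinib A, B or E, 6 without repeat ibrutinib C, 7 without repeat DMSO A or repeat ibrutinib D, and 9 without repeat DMSO B. The share of all tested genes called was not obtained for fits that left out a library, so these counts describe the members alone. Whether the classes differed from each other was not tested.

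*Eno3* had the smallest adjusted p among the enzymes. Its normalized counts were 3414, 3482, 3320 and 3103 with DMSO in experiments A to D. With ibrutinib they were 1996 in E and 1237, 1102, 2056 and 1458 in A to D. The DMSO libraries were high and close together, and no ibrutinib library reached them. *Eno3* fell by 1.08 on the log2 scale (SE 0.158, adjusted p = 0.00043), or 2.12-fold, was lower in 4 of 4 experiments and stayed called in 18 of 18 fits that left out a library.

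*Tpi1* had 12428, 12238, 22577 and 26764 normalized counts with DMSO. With ibrutinib it had 8649 in E and 7475, 5536, 12664 and 13180 in A to D. Experiments C and D were high with either treatment, so the groups overlapped, and *Tpi1* was lower with ibrutinib in 4 of 4 experiments. It fell by 0.96 on the log2 scale (SE 0.262, adjusted p = 0.0345, and 0.00289 with the block). *Gapdh*, the next enzyme of the chain, had 69486, 84892, 106040 and 103905 with DMSO and 54986 in E and 53910, 47611, 73756 and 69451 in A to D with ibrutinib. These groups overlapped too, with 4 of 4 experiments lower. *Gapdh* fell by 0.60 on the log2 scale (SE 0.162, adjusted p = 0.0316, and 0.00152 with the block). Both calls were lost in 5 fits, those without any one of repeat DMSO C or D and repeat ibrutinib A, B or E, at adjusted p = 0.0744 to 0.17 for *Tpi1* and 0.0663 to 0.123 for *Gapdh*.

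*Pfkp* (chr13:6579768-6648777) had 8394, 8559, 11850 and 11786 normalized counts with DMSO and 5778 in E and 7777, 7773, 7702 and 8274 in A to D with ibrutinib. In normalized counts the groups did not overlap, but in TPM they did (93.9 to 153 with DMSO, 53.3 to 115 with ibrutinib). *Pfkp* fell by 0.44 on the log2 scale (SE 0.13, adjusted p = 0.0487), but with the block it was not called (adjusted p = 0.0525). Its call was also lost in 13 of 18 fits that left out a library (0.0547 to 0.207), namely those without any one of repeat DMSO C or D, repeat ibrutinib A, B, C or E, single DMSO A, B, C or F and single ibrutinib A, C or D.

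**Figure D4:**
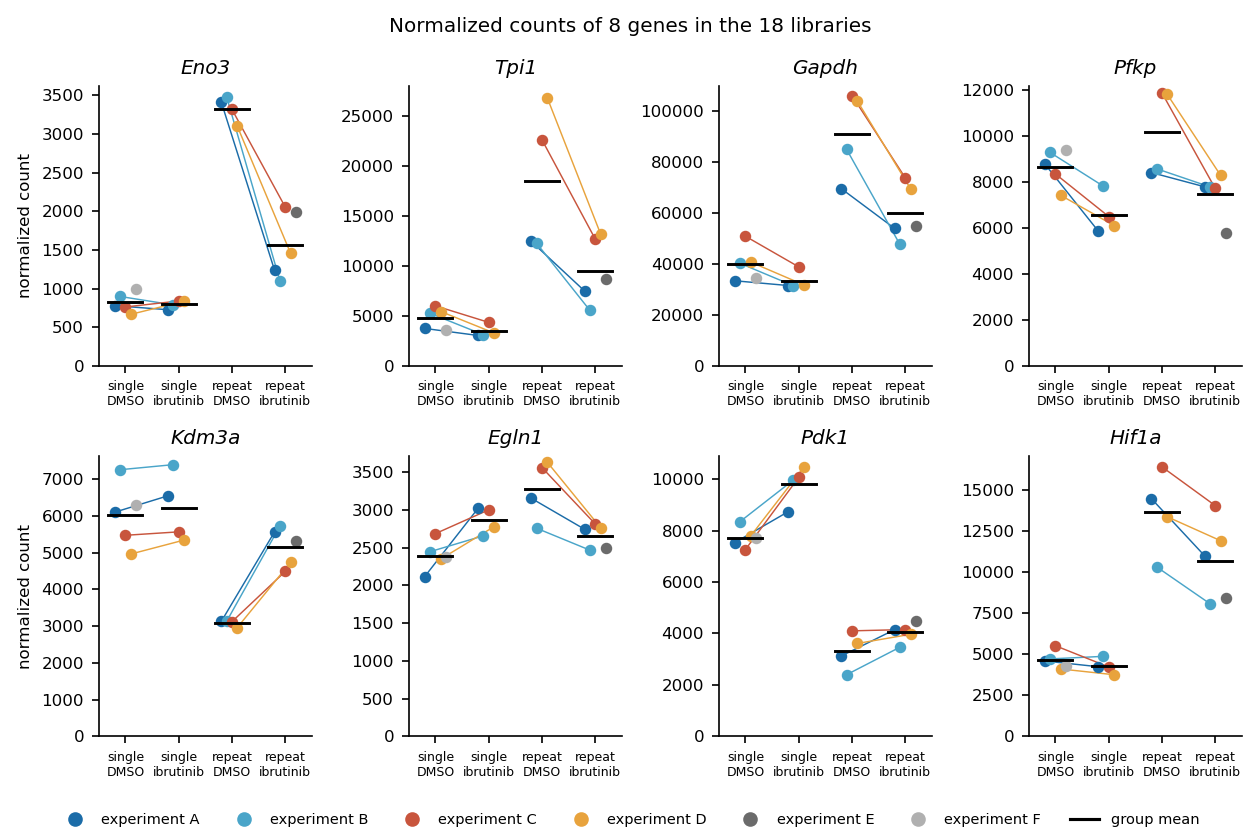
Normalized counts (vertical axis) of 8 genes in each of the 18 libraries by group (horizontal axis), with points coloured by experiment, lines joining the DMSO and ibrutinib libraries of an experiment and bars at the group means. For *Eno3* (3103 to 3482 with DMSO, 1102 to 2056 with ibrutinib) and *Kdm3a* (2959 to 3127 and 4485 to 5717) the repeat peptide groups do not overlap.

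Further enzymes were called only with the block. The log2 fold change, followed by the adjusted p without and with the block, was -0.70 ± 0.216 (0.0592 and 0.000447) for *Pgk1*, -0.61 ± 0.186 (0.0592 and 0.000744) for *Pgam1* and -0.60 ± 0.2 (0.0798 and 0.00707) for *Eno1*. It was -0.60 ± 0.23 (0.131 and 0.00133) for *Ldha*, -0.49 ± 0.158 (0.0741 and 0.019) for *Aldoa* and -0.43 ± 0.176 (0.162 and 0.0186) for *Pkm*. All 6 were lower with ibrutinib in 4 of 4 experiments. *Ldha*, the step to lactate, had 34109, 36653, 53933 and 61790 normalized counts with DMSO and 35223 in E and 23859, 18262, 37651 and 39151 in A to D with ibrutinib. The groups overlapped, as the ibrutinib libraries of C, D and E lay above the DMSO library of A. The library of E has no DMSO partner. Leaving out single libraries brought *Pgk1* past the threshold without any one of repeat DMSO A or B and repeat ibrutinib C or D (0.0298 to 0.0478), *Pgam1* without any one of repeat DMSO B and repeat ibrutinib C or D (0.0221 to 0.0336), *Aldoa* without any one of repeat DMSO A or B and repeat ibrutinib D (0.0266 to 0.0492) and *Eno1* without any one of repeat DMSO A and repeat ibrutinib C (0.0485 to 0.0492).

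The remaining enzymes were called neither with nor without the block. *Hk2* had 1753, 957, 2484 and 2693 normalized counts with DMSO and 718 in E and 1226, 1147, 1343 and 1372 in A to D with ibrutinib, a log2 fold change of -0.76 ± 0.303 (adjusted p = 0.143), and was higher with ibrutinib in experiment B alone. Without repeat DMSO B *Hk2* was called (adjusted p = 0.0485), as was *Pfkl* (0.0423), which otherwise stood at -0.51 ± 0.204 (adjusted p = 0.146). *Hk1* at -0.10 ± 0.109 (adjusted p = 0.631) and *Gpi1* at -0.00263 ± 0.0935 (adjusted p = 0.992) were nearest to 0. *Ldhb*, *Aldoc*, *Eno2* and *Pfkm* ranged from -0.57 to -0.26. *Hk3*, at 0.43 ± 0.362 (adjusted p = 0.523), was the one enzyme above 0. The share of *Hk2* in hexokinase TPM was 11 to 14.3% with ibrutinib, overlapping both DMSO groups.

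*Kdm3a* was the HIF target that rose. Its normalized counts were 3125, 3127, 3118 and 2959 with DMSO and 5315 in E and 5561, 5717, 4485 and 4731 in A to D with ibrutinib. Every ibrutinib library was above every DMSO library. *Kdm3a* rose by 0.74 ± 0.116 (adjusted p = 0.000758), or 1.67-fold, and stayed called in 18 of 18 fits that left out a library. Within experiments A to D the log2 difference was 0.83, 0.87, 0.52 and 0.68. *Pdk1*, the other gene that was lower in repeat peptide cells, had a log2 fold change of 0.29 ± 0.12 (adjusted p = 0.162) with ibrutinib.

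*Ak4* and *Vegfa* had the largest fitted differences among the HIF targets and wide spreads. *Ak4* had 228, 109, 559 and 624 normalized counts with DMSO and 92.8 in E and 52.1, 43.2, 209 and 154 in A to D with ibrutinib, a log2 fold change of -1.78 ± 0.589 (adjusted p = 0.0793), and was lower in 4 of 4 experiments. *Vegfa* had 280.3, 89.8, 550.3 and 687 with DMSO and 124 in E and 166, 64.8, 237 and 264 in A to D with ibrutinib, a log2 fold change of -1.22 ± 0.658 (adjusted p = 0.289), and was lower in 4 of 4 experiments. In both genes experiment B was far below C and D with either treatment. *Bnip3* had 1812, 917, 2674 and 2839 with DMSO and 1411 in E and 891, 708, 1493 and 1604 in A to D with ibrutinib, a log2 fold change of -0.75 ± 0.308 (adjusted p = 0.157) that was called with the block (adjusted p = 0.0459).

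*Egln1* and *Higd1a* were also called lower only with the block. *Egln1* had 3153, 2756, 3560 and 3631 normalized counts with DMSO and 2497 in E and 2743, 2466, 2813 and 2764 in A to D with ibrutinib, a log2 fold change of -0.30 ± 0.092 (adjusted p = 0.0569) and an adjusted p of 0.0321 with the block. *Higd1a* had 1135, 902, 1083 and 1693 with DMSO and 1478 in E and 616, 756, 821 and 1113 in A to D with ibrutinib, -0.33 ± 0.249 (adjusted p = 0.469) without and an adjusted p of 0.00402 with the block. The library of E was higher than the other ibrutinib libraries for *Higd1a* and does not inform the comparison with the block. *Ero1l*, at -0.44 ± 0.131 (adjusted p = 0.0534), was called in neither fit (0.0636 with the block). Without repeat DMSO B 5 HIF targets were called, *Kdm3a* together with *Bnip3* (0.0421), *Egln1* (0.0198), *Ero1l* and *Ak4*, and 3 were without repeat ibrutinib C and 2 without repeat ibrutinib D. The share of all tested genes called in these fits was not obtained. *Egln3*, *P4ha1*, *Ankrd37*, *Ndrg1*, *Bnip3l* and *Hilpda* ranged from -0.48 to 0.29 and were called in neither fit, and neither were *Pfkfb3* at -0.19 ± 0.136 (adjusted p = 0.444) and *Pfkfb4* at -0.56 ± 0.275 (adjusted p = 0.249). *Hif1a* had 14488, 10323, 16418 and 13377 normalized counts with DMSO and 8413 in E and 11002, 8083, 14058 and 11920 in A to D with ibrutinib, a log2 fold change of -0.35 ± 0.156 (adjusted p = 0.195), and was lower in 4 of 4 experiments.

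**Figure D5:**
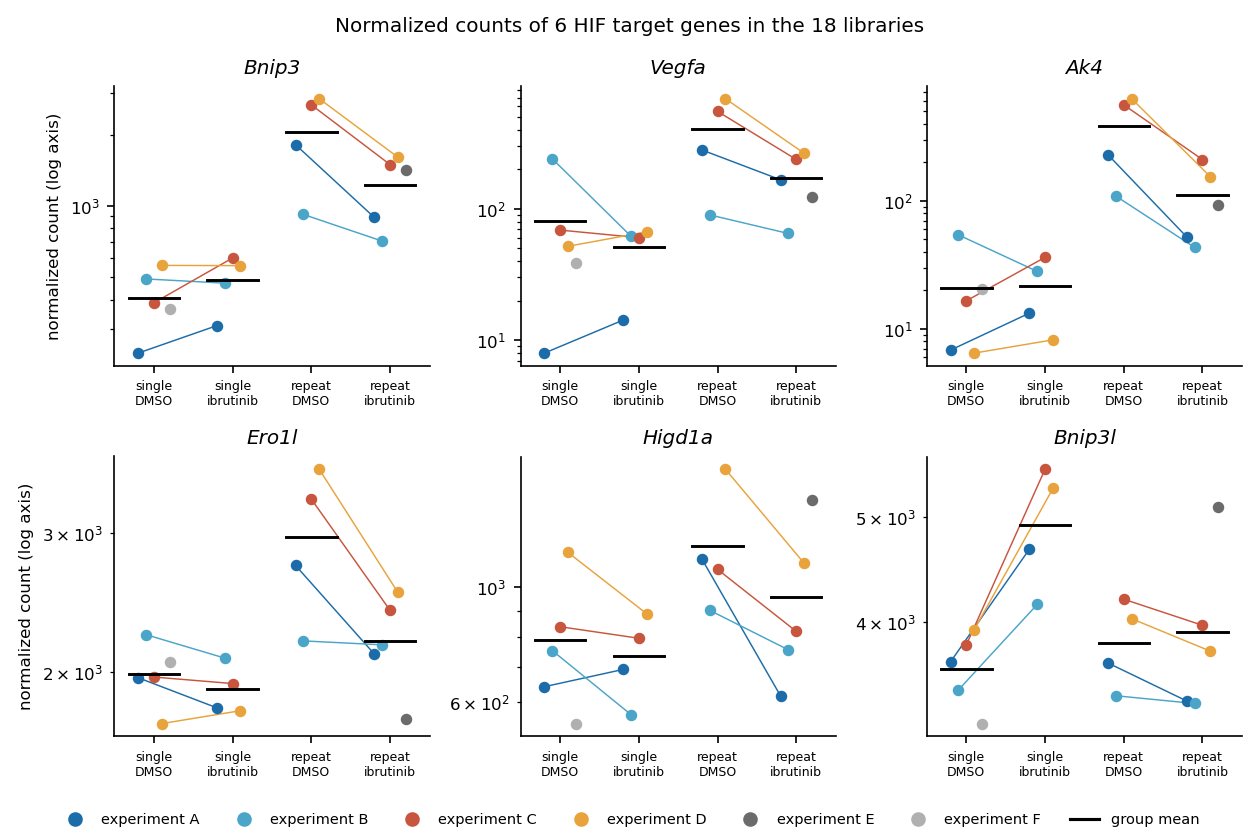
Normalized counts (vertical log axis) of 6 HIF target genes in each of the 18 libraries by group (horizontal axis), coloured and joined by experiment, with bars at the group means. In repeat peptide cells with DMSO *Vegfa* runs from 89.8 to 687 and *Ak4* from 109 to 624.

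Which experiment stood highest in the repeat peptide DMSO libraries varied between genes. Experiment D held the highest normalized count for 11 of 19 enzymes and 10 of 13 HIF targets, C for 6 and 2, B for 2 and 1, and A for 0 and 0. In the single peptide DMSO libraries of A to D, C was highest for 12 enzymes and B for 7 HIF targets. Genes of one library are not independent, so these counts describe the 4 experiments.

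In single peptide stimulated cells ibrutinib was compared with DMSO to see the inhibitor without persistent peptide. Of the 36 genes 1 was called, *Bnip3l*, where 3.04% of all tested genes were called. *Bnip3l* (a mitophagy receptor also known as NIX, chr14:66985239-67008877) had 3673, 3459, 3808, 3933 and 3219 normalized counts with DMSO in A to D and F and 4669, 4150, 5538 and 5315 with ibrutinib in A to D. All ibrutinib libraries were above all DMSO libraries. *Bnip3l* rose by 0.44 ± 0.12 (adjusted p = 0.0499), the adjusted p being 0.000692 with the block, and its counts were fractional in all 18 libraries. The call was lost in 16 of 18 fits that left out a library (0.052 to 0.194), namely those without any one of repeat DMSO A, B, C or D, repeat ibrutinib A, B, C or D, single DMSO A, B, C, D or F and single ibrutinib A, C or D. With the block 2 genes were called, *Bnip3l* and, lower, *Pgam1* (-0.32, adjusted p = 0.0424), where 9.09% of all tested genes were called. The median log2 fold change was -0.19 for the enzymes and 0.05 for the HIF targets, beside 0.01 over all tested genes, and 16 of 19 enzymes were below 0.

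Whether ibrutinib acted differently in repeat and single peptide cells was tested with an interaction term, which called 3 of the 36 genes, where 1.26% of all tested genes were called. *Eno3* had 666 to 997 normalized counts in single peptide cells with DMSO and 726 to 839 with ibrutinib, a log2 fold change of -0.0402 ± 0.161, and its effects differed by -1.04 ± 0.225 (adjusted p = 0.0237). *Kdm3a* had 4958 to 7252 and 5338 to 7390, a log2 fold change of 0.046 ± 0.114, and its effects differed by 0.70 ± 0.163 (adjusted p = 0.0406). *Egln1* had 2117 to 2685 and 2656 to 3020, a log2 fold change of 0.26 ± 0.0921, against -0.30 in repeat peptide cells, and its effects differed by -0.56 ± 0.13 (adjusted p = 0.0399). With the block the adjusted p was 0.00146 for *Eno3*, 0.00241 for *Kdm3a* and 0.0124 for *Egln1*. The block added *Bnip3l* (-0.48, adjusted p = 0.00521), where 5.54% of all tested genes were called. A difference was not shown for the other genes, *Tpi1* at -0.48 ± 0.372 (adjusted p = 0.722), *Gapdh* at -0.35 ± 0.23 (adjusted p = 0.652) and *Pfkp* at -0.0485 ± 0.185 (adjusted p = 0.969) among them. In single peptide cells *Pfkp*, not called there, had 7405 to 9368 normalized counts with DMSO and 5863 to 7801 with ibrutinib.

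Calls of the interaction were lost when single libraries were left out. That of *Eno3* was lost without any one of repeat DMSO B or C, repeat ibrutinib A and single ibrutinib C or D (adjusted p = 0.0509 to 0.0728). That of *Kdm3a* was lost without any one of repeat DMSO A, B, C or D, repeat ibrutinib A, B or E, single DMSO A, B or F and single ibrutinib A, C or D (0.0554 to 0.101). That of *Egln1* was lost without any one of repeat DMSO A, C or D, repeat ibrutinib A, B or E, single DMSO A, B, D or F and single ibrutinib A, C or D (0.054 to 0.112).

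Repeat and single peptide cells were also compared under ibrutinib. Of the 36 genes 16 were called, where 38.4% of all tested genes were. Of the enzymes 11 rose and 0 fell. *Ldhb* rose by 2.02 ± 0.373 (adjusted p = 0.000289), *Aldoc* rose by 1.54 ± 0.467 (adjusted p = 0.0125), *Tpi1* rose by 1.47 ± 0.274 (adjusted p = 0.000323) and *Pgk1* rose by 1.04 ± 0.222 (adjusted p = 0.00108). *Eno3* had 1102 to 2056 normalized counts in repeat and 726 to 839 in single peptide cells and rose by 0.98 ± 0.163 (adjusted p = 0.000107). Of the HIF targets *Ak4* rose by 2.36 ± 0.669 (adjusted p = 0.00833) and *Bnip3* rose by 1.34 ± 0.322 (adjusted p = 0.0027), whereas *Bnip3l* fell by 0.33 on the log2 scale (SE 0.12, adjusted p = 0.033). *Hif1a* rose by 1.32 ± 0.162 (adjusted p = 3.89e-06) and *Pdk1* fell by 1.28 on the log2 scale (SE 0.119, adjusted p = 1.99e-07). *Kdm3a* stood at -0.27 ± 0.114 (adjusted p = 0.0671) and was called with the block (0.00793), as were *Eno1* (0.00274) and *Egln3* (0.0202), which gave 19 calls where 48.6% of all tested genes were called.

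Some of these calls depended on a library. That of *Hk2* was lost without any one of repeat ibrutinib A, C or D and single ibrutinib A, C or D (adjusted p = 0.0536 to 0.113), that of *Aldoa* without any one of repeat ibrutinib C or D and single ibrutinib B or D (0.0558 to 0.123), that of *Pkm* without any one of repeat ibrutinib C or D and single ibrutinib A, B or D (0.0533 to 0.0982) and that of *Bnip3l* without any one of repeat DMSO D, repeat ibrutinib A, B, C or D, single DMSO B and single ibrutinib A, C or D (0.0536 to 0.141). *Vegfa* was called without any one of repeat DMSO B, repeat ibrutinib B and single DMSO A or B (0.0238 to 0.0394), *Eno1* without any one of repeat DMSO D, repeat ibrutinib B and single ibrutinib C (0.0182 to 0.0476) and *Ndrg1* without single ibrutinib B (0.0495).

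Genes next to the chain were taken from further lists, which were chosen with earlier results of these data known. Of 5 glucose and lactate transporters 4 rose in repeat peptide cells with DMSO and 1 fell with ibrutinib there, where 22.8% of all tested genes were called higher in the first comparison and 1.92% lower in the second. The gene that fell was *Slc16a3*, the lactate exporter MCT4, with 1659, 1244, 3865 and 4561 normalized counts with DMSO and 593 in E and 840.5, 519, 1446 and 1767 in A to D with ibrutinib. The groups overlapped, *Slc16a3* was lower in 4 of 4 experiments and fell by 1.45 on the log2 scale (SE 0.37, adjusted p = 0.0233), a call lost without any one of repeat DMSO C or D and repeat ibrutinib A, B or E (0.0596 to 0.126). Of 7 pentose phosphate genes 3 rose in repeat peptide cells with DMSO and 1 fell with ibrutinib there, against the same shares of all genes. *Pgd* (6-phosphogluconate dehydrogenase) fell by 0.29 on the log2 scale (SE 0.081, adjusted p = 0.0362), a call lost without any one of repeat DMSO A, B, C or D, repeat ibrutinib A, B or E and single ibrutinib A, C or D (0.0501 to 0.136). Of 12 tested genes of pyruvate fate, 7 tested paralogs of the enzymes and 6 genes of oxygen sensing none was called with ibrutinib in repeat peptide cells by edgeR, though at an unadjusted p under 0.05 there were 2, 0 and 1, where 21.6% of all tested genes were under it. With the block 2 of pyruvate fate were called lower, *Mpc1* (0.0475) and *Pcx* (0.0265), where 5.35% of all tested genes were.

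Of a second list of 16 HIF targets 14 were tested, and 4 fell and 0 rose with ibrutinib in repeat peptide cells, where 1.92% of all tested genes fell and 4.01% rose. The 14 had a median log2 fold change of -0.10, beside 0 over all tested genes. This list too was chosen with earlier results of these data known, so its counts are a description. *Cited2*, which competes with HIF-1α for a coactivator, had 2245, 2218, 2193 and 2278 normalized counts with DMSO and 1597 in E and 1250, 1399, 1643 and 1453 in A to D with ibrutinib. The groups did not overlap, and *Cited2* fell by 0.60 on the log2 scale (SE 0.0926, adjusted p = 0.000631). *Mxi1*, an antagonist of MYC, fell by 0.87 on the log2 scale (SE 0.129, adjusted p = 0.000524). *Bhlhe40*, a transcription factor also induced by T cell receptor signalling, fell by 1.55 on the log2 scale (SE 0.299, adjusted p = 0.00397). *P4ha2*, a collagen prolyl hydroxylase, fell by 2.29 on the log2 scale (SE 0.589, adjusted p = 0.0252), a call lost without any one of repeat DMSO C or D and repeat ibrutinib A, B or E (0.0581 to 0.125). The interaction was called for 2 of the 14, where 1.26% of all tested genes were called, *Mxi1* at -1.19 ± 0.184 (adjusted p = 0.00192) and *Cited2* at -0.84 ± 0.131 (adjusted p = 0.00205).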

How the data were processed

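The authors sequenced RNA of 18 cultures and processed the reads with nf-core/RNA-seq, Trim Galore and RSEM 1.3.1 on GRCm38 with an Ensembl annotation. Each deposited table gives estimated (expected) counts, TPM and FPKM per gene, of which the expected counts and TPM were used. Before testing, these counts were made whole by rounding and restricted to the 27903 protein-coding or lncRNA genes of GENCODE M21, which held 98.46% of counts. The 4 groups were fitted together with edgeR 4.0.16 in R 4.3.3 (filterByExpr, TMM scaling, quasi-likelihood test, Benjamini-Hochberg adjustment over 12255 genes). In the text adjusted p-values are from edgeR, and standard errors are the log2 fold change divided by the square root of F. Shares and sums are of TPM. The 36 genes, the other lists and the classes were chosen with earlier results of these data known.

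The experiment was taken from the genotype entry. In 24 pairs of libraries of the same experiment and different groups the deviations from the group means correlated at 0.16 to 0.494 (median 0.325). In 97 other pairs they correlated at -0.44 to 0.404 (median -0.0765), so the ranges overlapped. Reading the entry as an experiment was an inference, and a fit with the experiment as a block was run. Tested on simulated data with 200 genes changed by a log2 fold of 1, among 12099 genes, the fit of ibrutinib against DMSO in repeat peptide cells called 88.5% of them and 12 unchanged genes. The simulated counts held no experiment effect and only well counted genes were changed. Recovery of smaller changes was not tested. Replicate libraries differed by more than counting noise in every pair (chi-square over its degrees of freedom, 28.6 to 225). All 36 genes are accounted for. Genes named in full are those called for ibrutinib in repeat peptide cells or for the interaction, the isoenzyme families and the HIF targets. Alternatives were the DESeq2 1.42.0 Wald test, its size factors, an effective length offset, no filter on low counts, all gene types, a log2 fold change above 1, the compared groups alone, the block and leaving out each library. For the class sums the mean of log2(TPM + 1) was also taken. Promoter sequences are from RefSeq.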

Additional observations from a re-analysis of the deposited data

Results flagged for a closer look

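In 8 of 144 groups of normalized counts (36 genes in 4 groups) a library stood apart from the others of its group by Dixon's 95% criterion, which chance alone would meet in about 1 of 20 groups. *Pfkp* had 5778 normalized counts in the repeat peptide ibrutinib library of experiment E, the lowest of a group that reached 8274. *Hilpda*, a lipid droplet protein, had 460.6 in the same library, the highest of a group that started at 178.6. *Kdm3a* had 2959 in the repeat peptide DMSO library of D, while the highest of that group was 3127. In the single peptide ibrutinib group *Gapdh* (38826) and *Eno1* (33709) were high in experiment C, and *Vegfa* was low in A (14.22). In the single peptide DMSO group experiment B was high for *Vegfa* (240.1) and *Ankrd37* (358.1).

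For 3 genes the ibrutinib effect differed between repeat and single peptide cells by the interaction term, a log2 difference of -1.04 for *Eno3*, -0.56 for *Egln1* and 0.70 for *Kdm3a*.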

How the results depend on the processing

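For ibrutinib against DMSO in repeat peptide cells, the 4 enzymes called became 8 with the DESeq2 Wald test, 2 without a filter on low counts, 1 with the compared groups alone, 1 with a log2 fold change above 1 and 9 with the experiment as a block, and 1 to 9 when a library was left out. The 1 HIF target called became 4 with the DESeq2 Wald test, 0 above a log2 fold change of 1 (*Kdm3a*, at 0.74, is below it) and 4 with the block, and 1 to 5 when a library was left out. For repeat against single peptide with DMSO, a log2 fold change above 1 left 9 of 14 enzymes and 4 of 9 HIF targets called, and leaving out libraries gave 12 to 14 and 7 to 9. In single peptide cells the 1 gene called for ibrutinib became 2 with the DESeq2 Wald test and with the block, and 0 with DESeq2 size factors, the effective length offset, no filter, the compared groups alone or a log2 fold change above 1, and 0 to 1 when a library was left out. Under ibrutinib, a log2 fold change above 1 left 8 of 16 calls between repeat and single peptide cells, and leaving out libraries gave 12 to 17. The interaction's 3 calls became 1 above a log2 fold change of 1, 4 with the block and 0 to 3 when a library was left out. Apart from the settings' own construction, the cause was not tested. For ibrutinib in repeat peptide cells, 1.92% of all tested genes were called lower without the block and 5.35% with it. For settings other than the main fit and the block, the share of all tested genes called was not obtained. Those counts therefore describe the members alone, and a change in them cannot be told from a change in calls among all genes.

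The ratio of summed enzyme TPM in repeat peptide cells, 0.629, was 0.586 to 0.676 when a library was left out, and that of the HIF targets, 0.803, was 0.718 to 0.865. From the mean of log2(TPM + 1), in which each gene counts equally, the ratios were closer, 0.675 for the enzymes and 0.755 for the HIF targets. Signs changed for genes that were not called: *Gpi1* was 0.013 without a filter, 0.002 with all gene types, 0.019 with the compared groups alone and -0.061 to 0.04 when a library was left out. *Bnip3l* was -0.08 with the block and -0.081 to 0.095 when a library was left out. Over the same fits *Ankrd37* ranged from -0.419 to 0.26, above 0 without repeat DMSO D, *Ndrg1* from -0.324 to 0.007, likewise without repeat DMSO D, and *Hilpda* from -0.02, without repeat ibrutinib E, to 0.582. Other scalings moved the median over all genes by at most 0.027 on the log2 scale. With 4 or 5 libraries a group, genes of few counts such as *Eno2* and *Hk3* carry wide errors.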
